A study of Homo sapiens with 8 samples.

Results

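The genes described are 10 apolipoprotein genes, APOA1, APOA2, APOA4, APOA5, APOB, APOC1, APOC3, APOE, APOH and APOM, found by gene name in the authors' deposited table of m6A differences. Of these 10 genes, 9 were listed for HUH7, among 10447 genes, and 3 for PLC/PRF/5, among 5477 genes with 9516 peaks. The 3 genes listed in PLC/PRF/5 (APOA1, APOA2 and APOB) were also listed in HUH7, and APOH was listed in neither line. Both lines are established human lines that derive from hepatocellular carcinomas. Parental cells of each line, labelled CON, were compared with CSTF2 knockout cells made by CRISPR-Cas9, labelled CKO. Whether a knockout line came from a single clone is not given in the sources used here. From each line and genotype an m6A immunoprecipitate and an input library were sequenced (MeRIP-seq), 8 libraries in all and 1 per group, so that no value has a replicate, an error or a test.

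Apolipoproteins are the protein part of lipoproteins, the particles that carry cholesterol and triglycerides in plasma, and hepatocytes secrete most of them. APOB forms the backbone of very-low- and low-density lipoprotein, while the smaller APOA, APOC and APOE proteins move between particles and direct lipolysis, uptake by receptors and the return of cholesterol to the liver. N6-methyladenosine (m6A) is a common internal modification of mRNA that reader proteins bind, and that affects how long an mRNA lasts and how it is translated. The CSTF2 protein is part of the complex that cuts nascent transcripts before their poly(A) tail is added.

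Per the file headers, each value is a log2 fold change of a difference, and the table's title names control before knockout. Neither says which way the ratio runs, so signs are reported as deposited, and a positive value cannot be assigned to the knockout or to the parental cells. Whether the value holds the change of the immunoprecipitate alone or relative to input is not given either. Read depth is unknown. In HUH7, 12.6% of genes held 1 of 16 extreme values that at least 10 genes shared to 6 decimals; none of the 9 apolipoprotein values was such a repeated value. Hepatocyte markers were listed for 6 of 9 genes in HUH7, where ALB, TTR and AFP were absent from the list, and for 5 of 9 in PLC/PRF/5, where ALB was present and TTR and AFP were not. Markers of fibroblasts, endothelial cells and leukocytes were listed for 7 of 9 genes in HUH7 and for 2 of 9 in PLC/PRF/5. A listing gives no expression level.

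In HUH7, APOA4 and APOC3 had the largest values of the family, APOA5 lay just under a log2 fold change of 1, and the remaining 6 listed genes lay between -0.50 and 0.51 in the authors' deposited table. A size of at least 1 (log2, either sign) was reached by 2 of the 9 genes, both positive. Over all HUH7 genes 36.9% reached it, 22.2% with a positive and 14.6% with a negative value. Over the unrepeated values, which are of the same kind as the 9, 27.8% reached it, 20.1% with a positive value. The count of 2 of 9 (22.2%) therefore does not set the apolipoprotein genes apart. Their median was 0.28, beside 0.20 over all HUH7 genes and 0.23 over the unrepeated values. Positive values were held by 6 of the 9 genes, or 66.7%, beside 60.8% of all HUH7 genes.

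**Figure D1:**
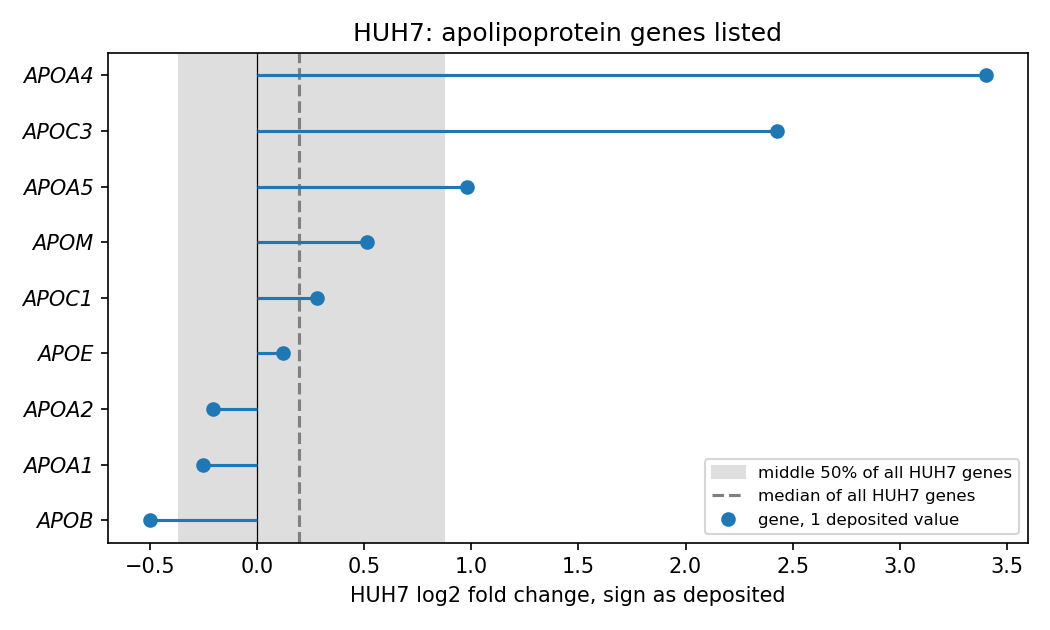
HUH7 log2 fold change (x axis, sign as deposited) of each listed apolipoprotein gene (y axis), 1 point per gene with a line from 0; the grey band spans the interquartile range of all 10447 HUH7 genes and the dashed line their median. APOA4 (3.40), APOC3 (2.43) and APOA5 (0.98) lie above the band, APOB (-0.50) lies below it, and the other 5 lie inside.

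Among the proteins of triglyceride-rich particles, APOA4, which is carried on chylomicrons and high-density lipoprotein, had 3.40 in HUH7 in the authors' deposited table, a ratio of 10.6 on the linear scale. This value was above those of 93.5% of HUH7 genes. That share, like those of the other apolipoprotein genes in HUH7, counts the repeated values, 491 of them positive and 824 negative. APOC3, which slows lipolysis and the uptake of remnant particles, had 2.43 in the authors' deposited table, a linear ratio of 5.38 and above 90.6% of genes. APOA5, which promotes lipolysis by lipoprotein lipase, had 0.98 in the authors' deposited table, a linear ratio of 1.98 and above 77.4% of genes. These were the 3 most positive of the 9, and proteins known to act on lipolysis in opposite ways, APOC3 and APOA5, had values of the same sign. That sign was positive, as in 60.8% of all HUH7 genes, so sharing it says little about the 2 genes. None of the 3 was listed in PLC/PRF/5. Markers of other cell types also had large HUH7 values: 5 of their 7 listed genes had a size of at least 1, beside 36.9% of all HUH7 genes. Their median was 2.26. Among unrepeated values it was 3 of 5, beside 27.8% of such values. Of the 6 listed hepatocyte markers, all with unrepeated values, 1 had this size, and their median was 0.27. Marker lists of 7 and 6 genes are too small for these counts to set them apart. The fibroblast genes COL1A2 (4.01), COL1A1 (3.97) and PDGFRB (2.26) had unrepeated positive values as large as those of APOA4 and APOC3 or close to them in the authors' deposited table. PECAM1 (0.92) and CD68 (0.18) lay under 1, ACTA2 (9.92) and CDH5 (-7.94) held repeated values in the authors' deposited table, and VWF and PTPRC were not listed. The part of these markers in the apolipoprotein values was not tested.

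APOA1, APOA2 and APOM, which are carried mainly on high-density lipoprotein, had values of both signs in HUH7, all under 1 in size. APOA1, its main protein and the activator of the cholesterol-esterifying enzyme LCAT, had -0.25 in the authors' deposited table, a linear ratio of 0.840 and above 28.3% of genes. APOA2, its second most abundant protein, had -0.21 in the authors' deposited table, a ratio of 0.867 and above 29.9% of genes. APOM, a lipocalin that carries sphingosine 1-phosphate, had 0.51 in the authors' deposited table, a ratio of 1.43 and above 64.5% of genes. The first 258 bases of APOM in the RefSeq annotation are shared with the neighbouring gene BAG6, which had 0.82 in HUH7 in the authors' deposited table; whether strand was used in assigning signal is not given in the sources used here.

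The ligands of lipoprotein receptors and APOC1 had values of at most 0.50 in size in HUH7. APOE, which carries remnant particles to their receptors, had 0.12 in the authors' deposited table, a ratio of 1.09 and above 46.0% of genes. APOC1, which is known to interfere with that uptake, had 0.28 in the authors' deposited table, a ratio of 1.21 and above 54.3% of genes. APOB, through which low-density lipoprotein is taken up, had -0.50 in the authors' deposited table, the lowest of the family. Its ratio was 0.707, and 21.7% of HUH7 genes had lower values. From high to low the order was APOA4, APOC3, APOA5, APOM, APOC1, APOE, APOA2, APOA1 and APOB. Without replicates, it cannot be said which neighbours in this order differ beyond the spread between libraries. APOH, or beta-2-glycoprotein I, a phospholipid-binding plasma protein, was absent from both lists under its symbol and under its RefSeq synonyms.

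Genes side by side in the genome had both like and unlike values. APOA5, APOA4, APOC3 and APOA1 lie side by side on chromosome 11 within 48.3 kb, at 116789367 to 116792420, 116820700 to 116823304, 116829907 to 116833072 and 116835751 to 116837622 (RefSeq, GRCh38.p14). This cluster held both the 3 highest values and 1 of the 3 negative ones. APOC3 and APOA1 are separated by 2.68 kb, and their HUH7 values differed by 2.68 on the log2 scale. APOA4 and APOC3, 6.60 kb apart, differed by 0.97. Of the protein-coding genes within 100 kb of the cluster, ZPR1 had -1.33, BUD13 -0.88 and SIK3 0.20 in HUH7 in the authors' deposited table, so that the large positive values were held by APOA4 and APOC3 and not by these neighbours.

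The second cluster, on chromosome 19, had small values throughout the listed single genes. APOE (44905796 to 44909393) and APOC1 (44914325 to 44919346) are 4.93 kb apart, and their values, given above, differed by 0.16 on the log2 scale. The 5 listed neighbours within 100 kb, BCAM, NECTIN2, TOMM40, CLPTM1 and RELB, lay between -0.26 and 0.52 in HUH7 in the authors' deposited table. The cluster's other apolipoprotein genes, APOC4 and APOC2, were not listed by those names. The read-through name APOC4-APOC2, which joins both and was picked out after its value was seen, had -7.94 in HUH7 in the authors' deposited table, a repeated value held by 104 genes.

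**Figure D2:**
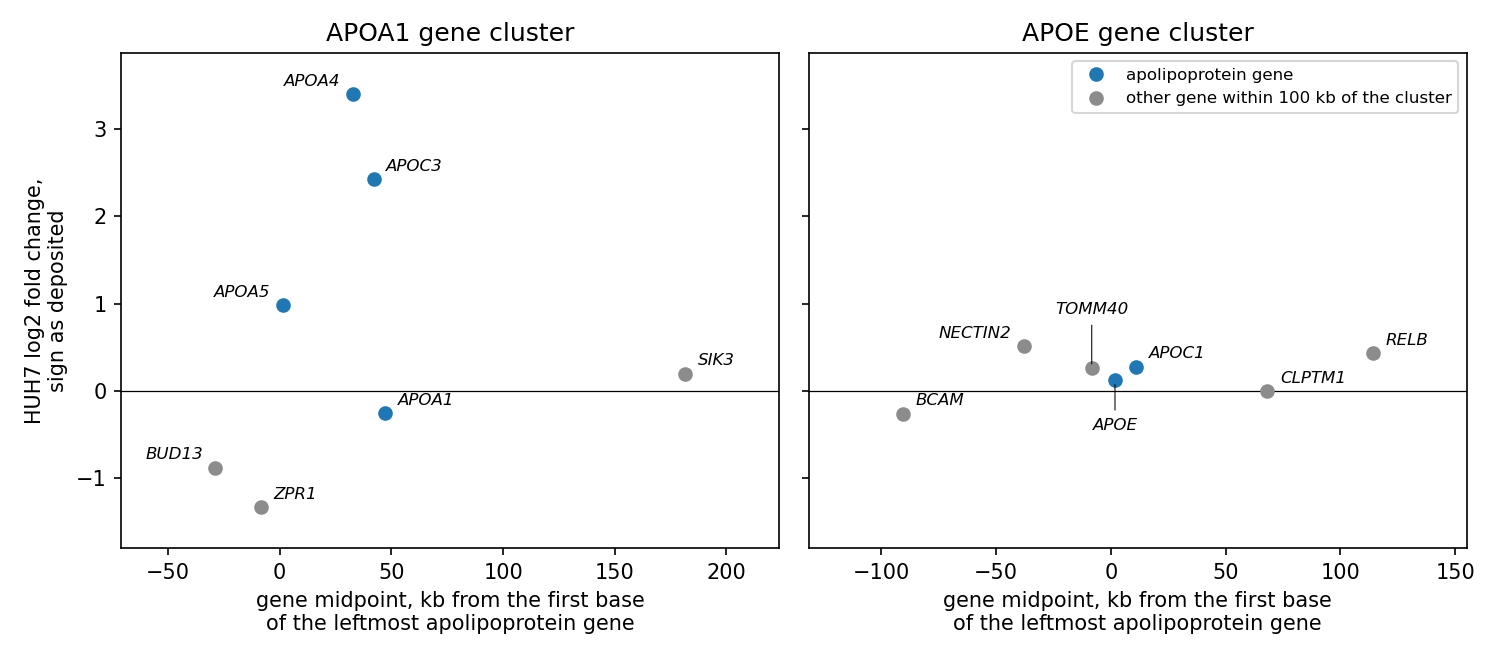
HUH7 log2 fold change (y axis, sign as deposited) against gene midpoint in kb (x axis) for the APOA1 cluster on the left and the APOE cluster on the right; blue points are apolipoprotein genes and grey points are other protein-coding genes that reach within 100 kb of the cluster. APOA4 (3.40) and APOC3 (2.43) stand above the 3 listed neighbours on the left, while on the right APOE (0.12) and APOC1 (0.28) lie among theirs, from -0.26 to 0.52; the repeated value of the read-through name is not drawn.

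In PLC/PRF/5 the apolipoprotein genes had 13 peaks, 11 of them in APOB and 1 each in APOA1 and APOA2. The remaining 7 genes of the family had no entry. Of the 9 genes listed in HUH7, 33.3% were listed in PLC/PRF/5, beside 37.0% of all HUH7 genes. APOA1 had 1.58 in the authors' deposited table, above 24.0% of all PLC/PRF/5 peaks. APOA2 had 10.94 in the authors' deposited table, above 86.7% of all peaks. The genes of the pair, which encode the main proteins of the same particle and had close values in HUH7, thus lay far apart in PLC/PRF/5. Each rests on 1 peak, and the 11 peaks of APOB alone ran from -1.48 to 11.40, so such a gap does not set the pair apart.

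APOB spans 42645 bases of chromosome 2 (21001429 to 21044073), and its 11 peaks ran over nearly the whole range of the PLC/PRF/5 column. In the authors' deposited table its 3 negative peaks had -1.48, -1.03 and -0.15. Its 8 positive peaks had 4.26, 4.57, 5.39, 5.48, 7.96, 8.44, 10.48 and 11.40 in the authors' deposited table. No peak lay between -0.15 and 4.26. The median was 5.39 and the SD over the 11 peaks 4.44, beside a median of 5.44 and an SD of 4.34 over all 9516 peaks. The peaks of APOB were therefore as spread out as the column. Where each lies on the transcript is not given in the sources used here, so neighbouring peaks cannot be compared. In HUH7 the gene had a single value, -0.50. Whether that value stands for 1 peak, for several peaks combined or for the whole gene is not given in the sources used here. APOB was among the genes with most peaks: 7 genes had more, 3 including APOB had 11, and 60.5% of the 5477 genes had 1.

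Of the 13 apolipoprotein peaks, 12 had a size of at least 1, 10 of them positive and 2 negative. Over all PLC/PRF/5 peaks 87.1% had such a size, 79.7% positive and 7.31% negative, so this count does not set the family apart. The 13 peaks had a median of 5.39, and 76.9% were positive, beside 86.0% of all peaks. The whole column ran from -2.12 to just under 13 and was filled evenly, with 599 to 655 peaks in every bin when cut into 15 bins of width 1 from -2 to 13. The size of a value is thus read against a column whose interquartile range is 1.72 to 9.19. How this even spread arose was not tested.

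**Figure D3:**
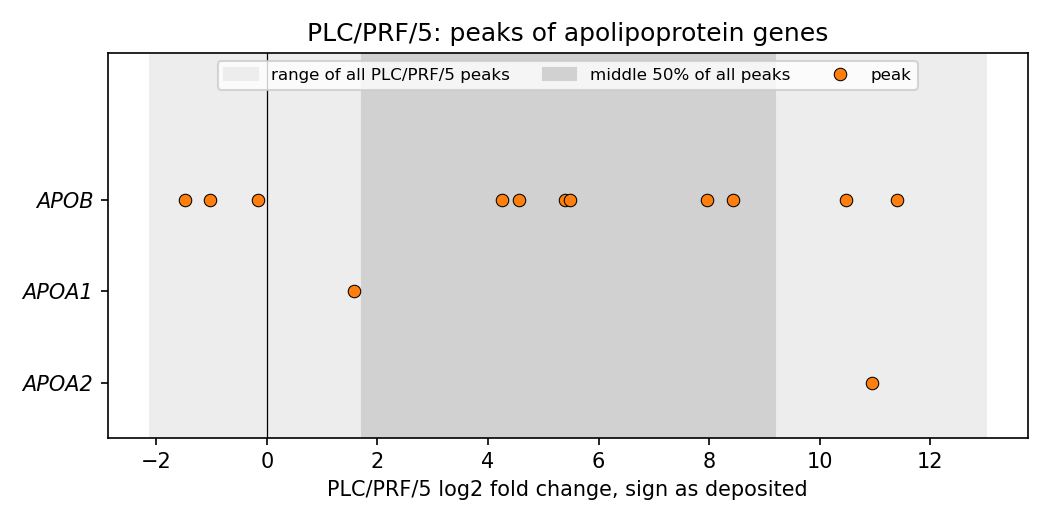
PLC/PRF/5 log2 fold change (x axis, sign as deposited) of each peak of APOB, APOA1 and APOA2 (y axis), 1 point per peak; the light band is the range of all 9516 peaks and the dark band their interquartile range. The 11 APOB peaks run from -1.48 to 11.40, APOA1 (1.58) lies just below the dark band and APOA2 (10.94) above it.

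Across the lines, the 3 shared genes were negative in HUH7, and 10 of their 13 PLC/PRF/5 peaks were positive. APOA1 (-0.25 and 1.58) and APOA2 (-0.21 and 10.94) had opposite signs in the lines in the authors' deposited table, and the difference could not be tested. A comparison of signs takes the ratio to run the same way in both columns, and the headers do not say so. With 60.8% of HUH7 genes and 86.0% of PLC/PRF/5 peaks positive, signs alone carry little about single genes.

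Other apolipoprotein genes were listed in HUH7 for 6 of 15 names, and 3 of these 6 had a size of at least 1, or 2 of the 5 unrepeated ones, beside 36.9% of all HUH7 genes and 27.8% of unrepeated values. Lists this small are not set apart by such counts. APOL1, the trypanosome-lytic protein of high-density lipoprotein, had 2.34 and SAA4, a constitutive serum amyloid A of the same particle, had -1.38 in the authors' deposited table. APOL3, named because it is the remaining gene of the 3, had 11.09 in the authors' deposited table, a repeated value held by 68 genes. In the authors' deposited table CLU, or apolipoprotein J, had 0.65 in HUH7 and 1 peak in PLC/PRF/5, at 5.56.

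Of 28 genes for receptors, lipid transfer, particle assembly and lipases, 21 were listed in HUH7, with 4 at 1 or above and 3 at -1 or below. That is 33.3%, beside 36.9% of all HUH7 genes, and their median was 0.34. Without repeated values the count was 5 of 19 (26.3%), beside 27.8% of all unrepeated values. Among unrepeated values, TM6SF2, which takes part in loading lipid onto very-low-density lipoprotein, had -2.24, and the endothelial lipase gene LIPG had -1.82 in the authors' deposited table. LRP2, which encodes the endocytic receptor megalin, had 2.12 and the cholesterol exporter gene ABCA1 had 1.63 in the authors' deposited table. Receptors with values under 1 in size included LRP1, which takes up remnant particles with APOE, at 0.34 in the authors' deposited table. SCARB1, which binds high-density lipoprotein, had -0.07 in the authors' deposited table. In PLC/PRF/5, LRP1 had peaks of -1.76, 1.54 and 6.07 in the authors' deposited table, and SCARB1 was not listed. In the authors' deposited table MTTP, which transfers lipid onto nascent APOB, had 0.80 in HUH7, and its PLC/PRF/5 peaks had 5.72 and 8.76. The 2 repeated values were those of ABCG5 (10.24), a sterol exporter subunit, and SORT1 (-8.94), a sorting receptor, in the authors' deposited table.

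Of 9 transcription factor genes known to regulate apolipoprotein genes, 8 were listed in HUH7, and 0 had a size of at least 1, beside 36.9% of all HUH7 genes. All 8 values were unrepeated, and over unrepeated values the share was 27.8%. A list of 8 is too small for this count to set it apart. They ran from CREB3L3, at -0.41, to the bile acid receptor gene NR1H4, at 0.43, in the authors' deposited table. In the authors' deposited table HNF4A, which drives many apolipoprotein genes in hepatocytes, had 0.18 in HUH7 and a PLC/PRF/5 peak at 10.94.

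**Figure D4:**
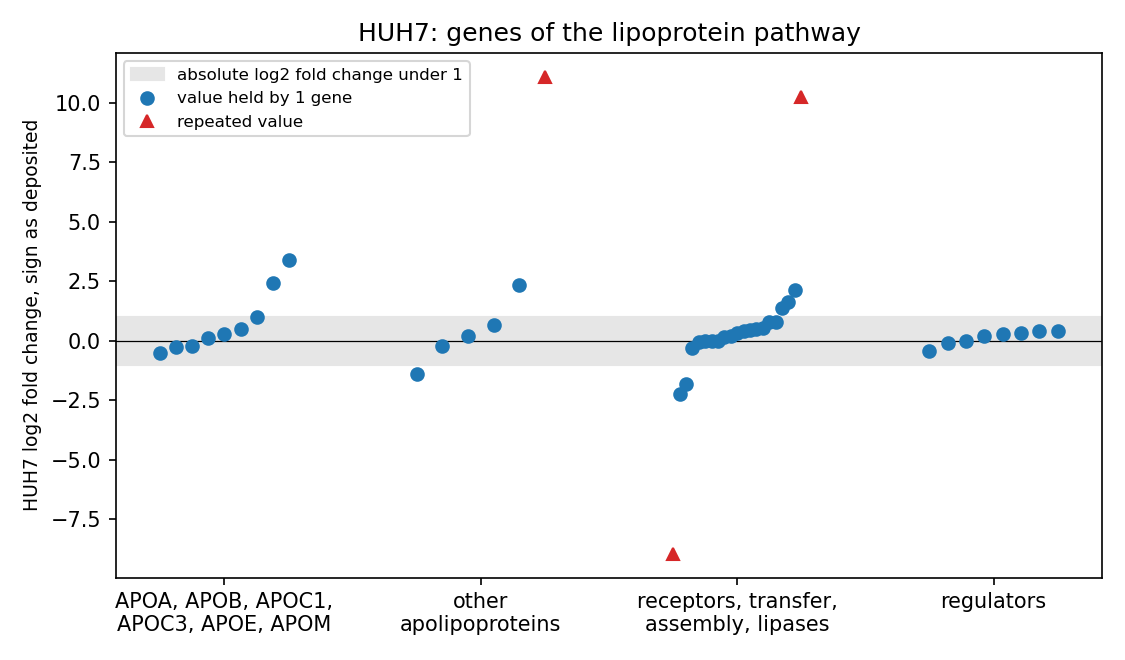
HUH7 log2 fold change (y axis, sign as deposited) of the 9 listed apolipoprotein genes, 6 other apolipoprotein genes, 21 genes of receptors, transfer, assembly and lipases, and 8 regulators (x axis), 1 point per gene ordered by value within a group; red triangles are repeated values and the grey band marks absolute values under 1. The regulators lie within the band, from -0.41 to 0.43, and 2 of the 9 apolipoprotein genes lie above it.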

How the data were processed

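The log2 values are the authors' deposited fold changes, in 1 column per cell line beside gene names. Genome build hg38 and FastQC 0.12.0 come from the submitters' processing notes; aligner, peak caller, differential method, scaling and filters: not given in the sources used here. The members and lists were chosen with earlier results of these data known. Names were matched exactly and, for absent genes, through RefSeq synonyms (GRCh38.p14 table), which added none. Each value was read against its whole column: percentile, median and the share of values with a size of at least 1, with no test, because every group has 1 library. A HUH7 value was called repeated when it was above 1 in size and identical to 6 decimals in at least 10 genes. PLC/PRF/5 entries of a gene were taken as peaks. Genes named are all 10 members and, of each other list, unrepeated HUH7 values past 1 (at most 6 by size), LRP1 and SCARB1, with some members not reported here; CLU, MTTP, HNF4A, CREB3L3, NR1H4, repeated values, markers of other cell types and cluster neighbours were picked after values were seen. Alternatives were other thresholds, repeated values left out, medians per gene, APOB left out and centring on the column median. Counting functions were tested on simulated data. Python 3.11.15 and pandas 2.3.3 were used.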

Additional observations from a re-analysis of the deposited data

Results flagged for a closer look

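In 5 of the 17 apolipoprotein and pathway genes listed in both lines (29.4%), every value in one line had the opposite sign to every value in the other, beside 36.9% of all 3866 genes listed in both, so such signs are common in the table; the difference was not tested, since each line has 1 comparison. In the authors' deposited table APOA1 had -0.25 in HUH7 and a PLC/PRF/5 peak at 1.58. APOA2 had -0.21 and 10.94 in the authors' deposited table. Among the regulators, CREB3L3 had -0.41 in HUH7 beside PLC/PRF/5 peaks of 2.33 and 8.13 in the authors' deposited table. NR1H3, which encodes a liver X receptor, had 0.42 and -0.20, and FOXO1, a factor that insulin signalling restrains, had 0.33 and -1.47 in the authors' deposited table.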

How the results depend on the processing

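In HUH7, 2 of 9 apolipoprotein genes had a size of at least 1 (log2); at a threshold of 0.5 there were 5, beside 57.7% of all genes, and with the other APO-named genes and CLU added there were 4 of 14, beside 36.9% of all genes. The count stayed at 2 of 9 at a threshold of 2, beside 21.4% of all genes, a share that includes the repeated values. The share of unrepeated values at 2 was not calculated, so the count at 2 cannot be placed against values of the same kind. Without repeated values the count at 1 was also 2 of 9, beside 27.8% of those left. The HUH7 median of 0.28 became 0.084 after the column median was subtracted. In PLC/PRF/5, the 12 of 13 peaks became 3 of 3 genes with 1 median per gene and 2 of 2 peaks without APOB, because fewer values were counted. The PLC/PRF/5 median of 5.39 became 6.26 without APOB, and -0.049 after the column median was subtracted, which turns its sign. Receptor, transfer, assembly and lipase genes numbered 7 of 21 at the threshold of 1 and 4 of 21 (19.0%) at 2, where the share of all genes was 21.4%. At 0.5 they numbered 10 of 21, beside 57.7% of all genes. Without repeated values they numbered 5 of 19 at 1, beside 27.8% of the values left. Depth is unknown, and nothing here carries an error between libraries.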
